A study of Mus musculus with 96 samples.

Results

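The cerebral cortex of mice lacking Scx was compared with that of wild-type mice in 6 of the 96 libraries of a multi-tissue RNA-seq survey. The members are the cortex libraries labelled wild type (3 samples) and Scx-/- (3 samples), and the 16842 genes with a count in at least 1 of these 6 libraries, out of 41575 gene symbols in the count table. Both groups were 3 weeks old, the wild-type group carried no stated allele, and the Scx-/- group is described only as a knockout, without the deleted exons or the strain. Organs were frozen whole, so each library holds RNA of all cells of the dissected piece, and fewer cells of a type and less RNA per cell cannot be told apart. The survey pooled barcoded samples of 16 tissues before library construction to find which tissues differ when Scx is lost, and hippocampus is the other brain tissue in it.

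Scleraxis, encoded by Scx, is a basic helix-loop-helix transcription factor that pairs with E proteins and binds short DNA motifs called E-boxes. It is best known from tendon and ligament progenitors, where it acts on collagen and tenomodulin genes. The cerebral cortex is built of layered excitatory neurons, inhibitory interneurons, astrocytes, oligodendrocytes, microglia, and the cells of vessels and meninges, none of which is a classical site of Scx expression.

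The wild-type libraries 1, 2, and 3 held 1658192, 642686, and 616505 counts and the Scx-/- libraries 932932, 1099474, and 1374818, with 11567 to 13785 genes detected per library. Pearson correlations of log2 values between libraries were 0.631 to 0.816 over the 9696 genes with a mean of at least 10 CPM (counts scaled to equal library totals), and no pair of replicates matched within counting error (chi-square per degree of freedom 9.63 to 10.4). Counts of Y-linked genes were 1, 66, and 0 in the wild-type libraries and 0, 210, and 209 in the Scx-/- libraries. Thus wild-type 2 and Scx-/- 2 and 3 carried Y-linked transcripts above 10 CPM while the others held at most 1 count, and the sex of the mice is not given in the sources used here. Y-linked presence below refers to this cut of 10 CPM. Neuron markers were present, with 8 of 8 excitatory neuron and 15 of 15 inhibitory neuron genes detected. Pancreatic acinar genes summed to at most 18.1 CPM and hepatocyte genes to at most 38.0 CPM in any library, both in wild-type 1. Skeletal muscle genes summed to 52.5 CPM in wild-type 1 but to 618 to 1198 CPM in all other libraries. Striatal neuron genes summed to 256 to 2045 CPM.

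Scx itself was barely detected. Wild-type 1 held 11 counts (6.63 CPM), while wild-type 2 and 3 and all 3 Scx-/- libraries held 0. Against a floor of 3 counts over the group, the Scx-/- level was at least 4.28-fold lower, a limit that rests on wild-type 1 alone, since without that library no count of Scx is left in either group. The test across all genes gave an unadjusted p of 0.097 for Scx (adjusted p = 0.83 by the quasi-likelihood test of edgeR, adjusted by Benjamini-Hochberg). The gene lies on chr15:76457452-76459458 (GRCm38, plus strand) and overlaps Bop1, a ribosome biogenesis gene, so that without a stated strand setting the reads of both cannot be told apart. Scx therefore checked no label of these libraries at this depth. Wild-type 1 also held 11 counts of Pnlip, a pancreatic lipase that was at 0 in the other five libraries. Its known partners and antagonists were measured in all 7 cases (E proteins such as Tcf3 and Tcf4, and Id proteins): 7 of 7 had a log2 fold change below 0 with a median of -0.49, none was called, and Tcf4, the most abundant, differed by -0.14. Of 8 tendon lineage genes 7 were detected, 2 above and 5 below 0, and none was called.

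The comparison over all genes asks what differs in the cortex of mice without Scx. No gene had an adjusted p under 0.05 by edgeR's quasi-likelihood test, where 620 genes (3.68%) had an unadjusted p under 0.05 and DESeq2 gave 5 genes an adjusted p under 0.05 (Adgrv1, Cirbp, Gadd45g, Gpr37l1, and Zfp809). At the thresholds of the study, an unadjusted p under 0.05 and a log2 fold change above 1 or below -1, 467 genes were called (2.77% of those tested), 228 higher (1.35%) and 239 lower (1.42%) in Scx-/- cortex. In what follows, "called" refers to these thresholds without adjustment. Of the 467, 183 had no count in any library of 1 group, 83 of them in wild type and 100 in Scx-/-. Groups did not overlap for 231 of the called genes, against 703 genes higher (4.17%) and 611 lower (3.63%) without overlap among all tested. Among the 9696 genes with a mean of at least 10 CPM, 262 were called (2.7%, with 1.39% higher and 1.31% lower), and 5.16% lay higher and 4.87% lower without overlap. A log2 fold change above 0 was seen for 52.1% of all genes and for 51.1% of those with at least 10 CPM. The median log2 fold change over all genes was 0.04, and 3 against 3 libraries allow an exact permutation p of no less than 0.1.

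**Figure D1:**
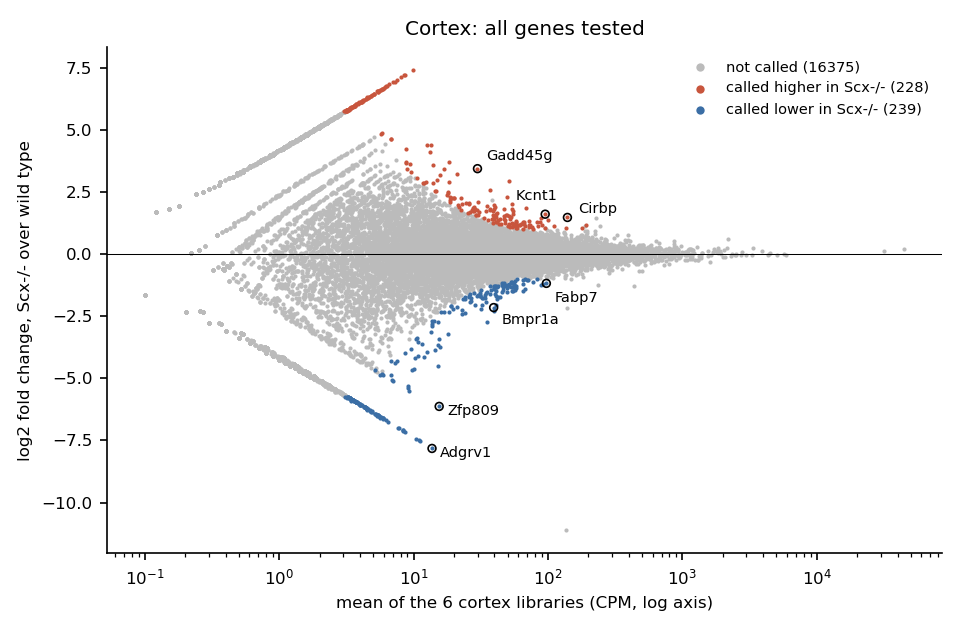
Log2 fold change of Scx-/- over wild-type cortex (vertical axis) against the mean level of the 6 libraries (CPM, log axis) for the 16842 genes tested. Red points are the 228 genes called higher and blue points the 239 called lower at the thresholds of the study, circles mark genes named in the text, and the straight bands at low levels are genes with counts in 1 group or few libraries.

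Cirbp, which encodes a cold-inducible RNA-binding protein, had the smallest p of all genes. Its level was 72.4, 93.4, and 60.0 CPM in the wild-type libraries and 179, 177, and 255 CPM in the Scx-/- libraries. Each Scx-/- library thus lay above each wild-type library, with means of 75.2 ± 16.9 and 204 ± 44.5 CPM (SD, n = 3 each), a log2 fold change of 1.47 ± 0.33 (SE) and an adjusted p of 0.0745. It was also higher on average in Scx-/- samples of 13 of the 15 other tissues and lower in 2. Those tissues may come from the same mice, so they do not count as further replicates.

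Further genes named as higher include Gadd45g and Kcnt1. Gadd45g, a growth-arrest and DNA damage gene that neuronal activity also induces, read 6.63, 6.22, and 1.62 CPM in wild type and 85.8, 24.6, and 54.6 CPM in Scx-/- cortex (log2 fold change 3.43 ± 0.83). Kcnt1, a sodium-activated potassium channel, read 70.6, 42.0, and 27.6 against 146, 195, and 91.6 CPM (1.6 ± 0.39). Both had an adjusted p of 0.164, and neither overlapped between groups. Nampt, the rate-limiting enzyme of NAD salvage, ranged from 9.34 to 12.7 CPM in wild type and reached 108, 55.5, and 28.4 CPM without Scx (2.58 ± 0.70, adjusted p = 0.409). The 3 Scx-/- libraries differed widely among themselves. Groups without overlap were a condition of the choice of the genes named by p and are no further result.

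Cops2, a COP9 signalosome subunit, stood at 47.6, 46.7, and 50.3 CPM in wild type and at 91.1, 217, and 82.9 CPM in Scx-/- cortex. Its log2 fold change of 1.46 fell to 0.89 without Scx-/- 2, which ends the call. Smpd1, the lysosomal acid sphingomyelinase, read 97.7, 156, and 104 against 275, 180, and 257 CPM, and its log2 fold change of 1.04 was 0.92 to 0.97 and no longer called without wild-type 1, wild-type 3, Scx-/- 1, or Scx-/- 3. Mvk, mevalonate kinase of cholesterol synthesis, read 19.3, 45.1, and 9.73 against 61.1, 98.2, and 90.9 CPM (1.80 ± 0.55). It was the only called gene of the 19 measured in the cholesterol synthesis list, where 9 lay above and 10 below 0, close to even. Wfs1, an endoplasmic reticulum membrane protein listed here among hippocampal neuron genes, read 122, 79.4, and 68.1 against 130, 207, and 216 CPM, and its log2 fold change of 1.05 lost the call at 0.88 to 0.97 without wild-type 2, wild-type 3, Scx-/- 2, or Scx-/- 3. The genes named as higher also include 1700037H04Rik, which read 37.3 to 63.3 CPM in wild type and 99.1 to 160 CPM in Scx-/- cortex, and Rfesd, which ranged from 0.603 to 4.67 and from 9.46 to 61.1 CPM and lost its call without Scx-/- 1. The call of 1700037H04Rik was not kept in every alternative fit either. Nudc, a dynein regulator, read 18.7, 46.7, and 0 against 83.6, 54.6, and 119 CPM, and it was also at 0 in wild-type 3 of 13 of the 15 other tissues. Its call was lost with DESeq2 (unadjusted p = 0.134).

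**Figure D2:**
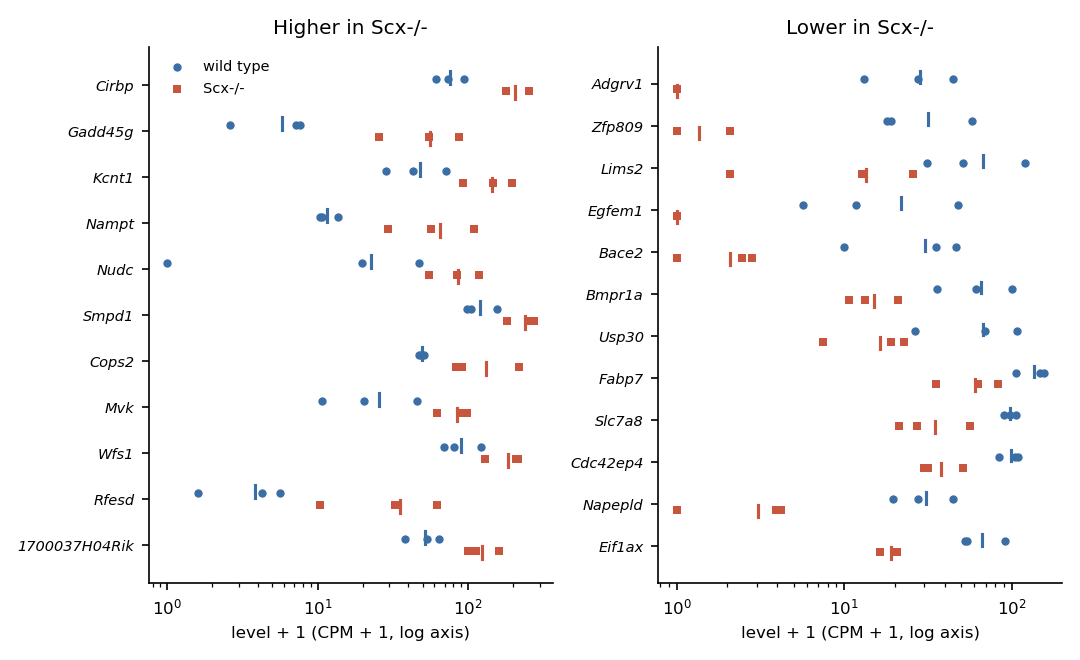
Level plus 1 per library (CPM, log axis) for 23 genes chosen by p among called genes without overlap between groups and with a mean of at least 10 CPM, 11 higher and 12 lower in Scx-/- cortex. Blue circles are the 3 wild-type and red squares the 3 Scx-/- libraries, and vertical ticks are the group means. The groups of a gene do not overlap because that was part of the choice.

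Of the genes named as lower, Fabp7, the brain lipid-binding protein of radial glia and astrocytes, was at 154, 106, and 146 CPM in wild type and at 81.5, 61.8, and 34.2 CPM in Scx-/- cortex (log2 fold change -1.18 ± 0.39). It was lower on average in Scx-/- samples of 11 of the 15 other tissues, hippocampus among them, and higher in 2. These tissues may come from the same mice, and the mean of Fabp7 over them was only 18.1 to 29.5 CPM in wild type. Its log2 fold change in cortex was -0.90 without Scx-/- 3 and -0.98 with Y-linked counts as a covariate, and neither is called. Slc7a8, a transporter of large neutral amino acids, read 97.1, 88.7, and 105 against 20.4, 55.5, and 26.2 CPM (-1.48 ± 0.49). Cdc42ep4, a Cdc42 effector, read 109, 104, and 82.7 against 50.4, 29.1, and 30.5 CPM (-1.40 ± 0.47). These 3 genes each had an adjusted p of 0.83, and the highest Scx-/- library of each lay below the lowest wild-type library, as their choice required. Neither Slc7a8 nor Cdc42ep4 kept its call in every alternative fit.

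Bmpr1a, a type I BMP receptor, was at 35, 60.7, and 98.9 CPM in wild type and at 9.65, 20, and 12.4 CPM in Scx-/- libraries (log2 fold change -2.16 ± 0.67, adjusted p = 0.746). Its call was not kept in every alternative fit. Smad6, an inhibitory Smad of the same pathway, read 6.03, 1.56, and 19.5 CPM in wild type and 0 in all 3 Scx-/- libraries, at least 8.95-fold lower against the floor of 3 counts over the group (5.43-fold without wild-type 3, 5.34-fold without Scx-/- 3), and its call was lost without wild-type 3 or without any 1 Scx-/- library. Of the 18 measured genes of TGF-beta and BMP signaling, 2 were called lower (against 1.42% of all genes) and 0 higher, and 8 lay above and 10 below 0. The median of -0.29 changed sign without wild-type 1 (0.20), without wild-type 3 (0.09), with filterByExpr (0.56), with the replicate block (0.05), and with Y-linked counts as a covariate (0.04), so the list had no stable direction. Bmpr2, the type II receptor, was at 99 to 118 CPM in wild type and 132 to 159 CPM in Scx-/- cortex, and Smad7, the other inhibitory Smad, at 21.8 to 27.1 and 36.4 to 45.1 CPM. Neither was called (log2 fold changes 0.46 and 0.77), although their groups did not overlap.

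Several of the genes with the largest fold changes were on in wild type and nearly absent without Scx. Adgrv1, a very large adhesion receptor of hair cells and brain, read 12.1, 26.5, and 43.8 CPM against 0 in all Scx-/- libraries, at least 24.9-fold lower (adjusted p = 0.164), a limit that was 14.9 without Scx-/- 3 and 39.7 without wild-type 1. Zfp809, a zinc finger protein that silences retroviruses, read 18.1, 17.1, and 56.8 against 1.07, 0, and 0 CPM (log2 fold change -6.13 ± 1.57, adjusted p = 0.201). Egfem1 read 10.9, 4.67, and 47.0 CPM against 0 in all Scx-/- libraries, at least 19.5-fold lower by the same floor, and 10.4-fold without wild-type 3, which held most of its counts, or 11.6-fold without Scx-/- 3. These low counts sit beside Bace2, a relative of the amyloid secretase Bace1, with 9.05, 34.2, and 45.4 against 0, 1.82, and 1.45 CPM (-4.52 ± 1.40). Lims2, an adaptor of integrin signaling, and Usp30, a mitochondrial deubiquitinase, were lower without overlap, but each lost its call without wild-type 2 (-1.61 and -1.53). Napepld, an enzyme of endocannabinoid synthesis, and Eif1ax, an X-linked translation initiation factor, read 18.7 to 43.8 against 0 to 3.22 CPM and 51.9 to 90.8 against 15.5 to 19.6 CPM. Eif1ax did not keep its call in every alternative fit.

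The promoters of 4 of these genes are shown for the E-box, the motif class that Scx binds. They were chosen as 2 genes called higher and 2 called lower, with 250 bases before and 50 after the annotated start, from RefSeq on GRCm38.p6, and the capitals mark each match to CANNTG, a motif that reads the same on both strands. Cirbp spans chr10:80167589-80167888 on the plus strand, Gadd45g chr13:51846425-51846724 on the plus strand, Fabp7 chr10:57784673-57784972 on the plus strand, and Slc7a8 chr14:54781837-54782136 on the minus strand.
Cirbp: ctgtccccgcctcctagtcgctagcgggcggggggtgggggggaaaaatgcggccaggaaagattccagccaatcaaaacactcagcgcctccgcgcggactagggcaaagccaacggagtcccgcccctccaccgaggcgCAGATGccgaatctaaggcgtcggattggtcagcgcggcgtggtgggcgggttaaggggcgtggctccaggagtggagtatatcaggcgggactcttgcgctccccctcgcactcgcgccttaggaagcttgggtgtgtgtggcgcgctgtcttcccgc
Gadd45g: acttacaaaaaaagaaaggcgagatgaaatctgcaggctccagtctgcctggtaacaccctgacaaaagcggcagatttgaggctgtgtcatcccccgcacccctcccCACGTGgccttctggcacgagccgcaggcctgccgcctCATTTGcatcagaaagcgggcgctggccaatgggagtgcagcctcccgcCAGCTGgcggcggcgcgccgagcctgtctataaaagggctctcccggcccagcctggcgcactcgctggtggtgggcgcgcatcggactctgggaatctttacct
Fabp7: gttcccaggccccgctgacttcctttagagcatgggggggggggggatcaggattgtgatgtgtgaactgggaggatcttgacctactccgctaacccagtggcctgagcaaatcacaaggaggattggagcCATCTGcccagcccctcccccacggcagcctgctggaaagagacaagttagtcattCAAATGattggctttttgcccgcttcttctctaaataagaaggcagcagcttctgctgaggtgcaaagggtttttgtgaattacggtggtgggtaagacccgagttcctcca
Slc7a8: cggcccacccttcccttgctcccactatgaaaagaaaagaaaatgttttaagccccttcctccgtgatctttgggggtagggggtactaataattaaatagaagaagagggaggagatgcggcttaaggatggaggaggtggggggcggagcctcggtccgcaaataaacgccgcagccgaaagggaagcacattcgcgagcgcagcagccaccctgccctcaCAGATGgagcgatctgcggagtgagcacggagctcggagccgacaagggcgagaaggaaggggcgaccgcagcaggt
The table holds a second start of Cirbp, at chr10:80167921-80168220 on the plus strand, whose window has 0 matches and is not printed. CANNTG was found 1 time in the printed window of Cirbp, 3 times in that of Gadd45g, 2 times in that of Fabp7, and 1 time in that of Slc7a8. The windows of Bmpr1a and Cdc42ep4, also named as lower, had 0 matches and are not printed. Of the 24 genes chosen by p, 20 had a promoter in the table, and 17 of their 25 promoters (68%) held the motif. It is common: 72.3% of 32851 promoters of this length held it, as did 63.8% of the promoters of genes called higher and 61.6% of those called lower, against 65.8% of all genes tested with a promoter. A match is a description of the letters and not a binding site.

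The cell type lists hold marker genes, whose RNA does not give the number of cells, and most of these lists held 0 or 1 called gene. Over all 47 lists, which also cover functions, pathways, and sex-linked genes, 604 measured genes held 22 called genes (3.64%, against 2.77% of all genes), 15 higher and 7 lower. Excitatory neuron genes split 4 to 4 about 0 with none called. Of 8 upper-layer genes, 5 lay above and 3 below 0 with a median of 0.12. Rorb, a nuclear receptor of layer 4, was called higher, with 71.2, 56.0, and 19.5 CPM in wild type and 128, 64.6, and 121 CPM in Scx-/- cortex, so that the groups overlap, and its log2 fold change of 1.09 lost the call at 0.73 to 0.97 without wild-type 3, Scx-/- 1, or Scx-/- 3. Lamp5, the most abundant of them, read 571 to 663 CPM in wild type and 320 to 582 CPM in Scx-/- cortex (-0.43, unadjusted p = 0.0296) and was not called. Deep-layer genes held no call among 12. Those with an unadjusted p under 0.05 ran both ways, among them Bcl11b at a log2 fold change of 0.78 (unadjusted p = 0.00659) and Tbr1, a layer 6 factor, at -0.66 (unadjusted p = 0.0371). Bcl11b, a factor of subcortical projection neurons that striatal neurons also express, read 151, 156, and 94.1 CPM in wild type and 102, 278, and 297 CPM in Scx-/- cortex. It was high in Scx-/- 2 and 3 only, and Scx-/- 1 lay among the wild-type values. Among 15 inhibitory neuron genes 10 lay above and 5 below 0 with a median of 0.10 and no call.

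Glial and vascular lists gave few calls. Gfap, the intermediate filament of astrocytes, was called lower at 112, 31.1, and 77.9 CPM in wild type and 32.2, 41.8, and 25.5 CPM in Scx-/- cortex. The groups overlap, since wild-type 2 lay below Scx-/- 1 and 2, the call was lost without wild-type 1 or 3 or Scx-/- 1 or 3, and the other 15 measured astrocyte genes were not called. The list split into 7 genes above and 9 below 0 with a median of -0.04. Slc1a2, the main glutamate transporter of astrocytes, differed by only 0.15 (log2), and Gjb6, a gap junction protein, by -0.68. Myelin genes were above 0 in 6 and below 0 in 7 of 13, oligodendrocyte precursor genes in 5 each of 10, and microglia genes in 7 each of 14, with no call in any of them. Mural cell genes of vessel walls were below 0 in 8 of 8 with a median of -0.37 (-0.62 to -0.42 when single libraries were left out) and none called, and their sum was 230, 269, and 251 CPM in wild type and 204, 221, and 128 CPM in Scx-/- cortex. Endothelial genes were above 0 in 9 of 11 with a median of 0.25 (0.07 without wild-type 2, 0.59 without wild-type 1). Ly6c1, an endothelial surface protein, was lower without overlap (-0.69, unadjusted p = 0.025) but below the fold threshold.

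**Figure D3:**
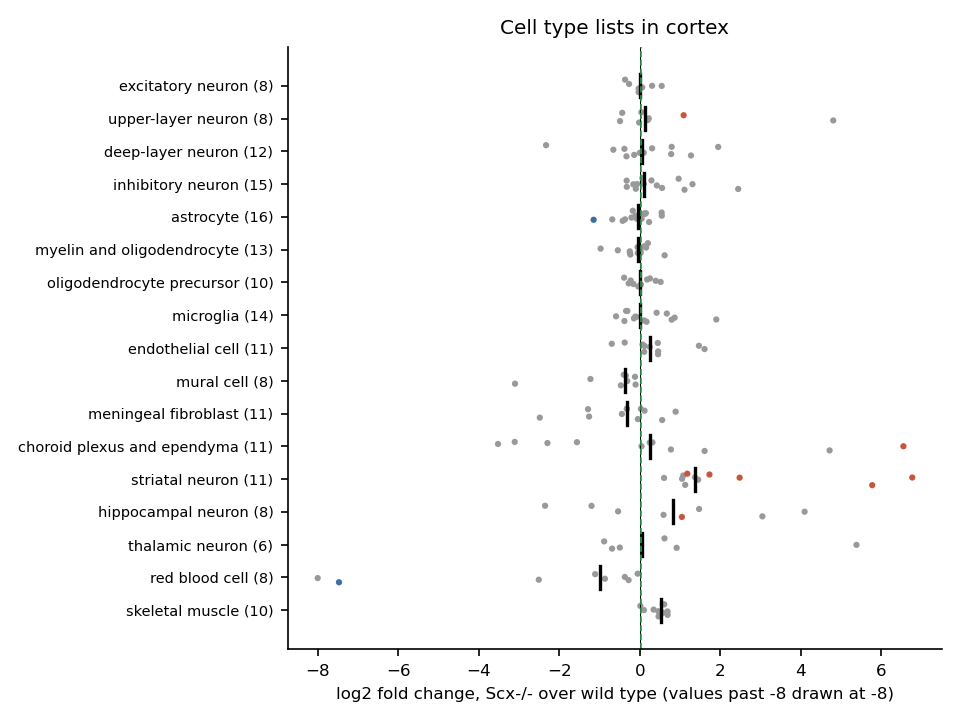
Log2 fold changes of Scx-/- over wild-type cortex for the measured genes (points, number in brackets) of the cell type lists, with called genes in red (higher) and blue (lower), black ticks for list medians, and a dashed line for the median of all genes. Of the 17 lists plotted, from excitatory neuron to skeletal muscle, the striatal neuron list has the highest median (1.37), while the excitatory neuron median is -0.00 and the mural cell median -0.37.

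The striatal neuron list had the most called genes of the cell type lists. These genes mark the medium spiny neurons of the striatum, a region beneath the cortex, and include the dopamine receptors Drd1 and Drd2. All 11 measured genes had a log2 fold change above 0 (against 52.1% of all genes) with a median of 1.37, and 5 were called higher (Drd2, Adora2a, Rgs9, and Isl1 among them), against 1.35% of all genes called higher. No gene of the list was called lower, and the groups overlapped for all 11.

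Rgs9, a regulator of dopamine signaling, read 37.4, 29.6, and 8.11 CPM in wild type and 19.3, 118, and 115 CPM in Scx-/- cortex (log2 fold change 1.73 ± 0.54, adjusted p = 0.747). Drd2 read 0.603, 17.1, and 0 against 0, 38.2, and 52.4 CPM. In both genes Scx-/- 2 and 3 were the highest libraries, and Scx-/- 1 lay below the highest wild-type value. Adora2a and Isl1, of indirect and direct pathway neurons, were at 0 in every wild-type library and in Scx-/- 1, and had 45 and 25 counts in the other two Scx-/- libraries together. Penk, the enkephalin precursor, at 101, 247, and 29.2 against 85.8, 352, and 562 CPM, and Ppp1r1b, the DARPP-32 gene, at 144, 279, and 48.7 against 86.8, 365, and 551 CPM, were not called.

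The summed level of the list was 464, 1002, and 256 CPM in wild type and 320, 1599, and 2045 CPM in Scx-/- cortex. The high libraries, wild-type 2 and Scx-/- 2 and 3, are the 3 with Y-linked counts above 10 CPM, and they were the top 3 libraries for 9 of the 11 genes. Within those 3, both Scx-/- libraries exceeded wild-type 2 for 10 of 11 genes. Among the 3 with at most 1 Y-linked count, Scx-/- 1 exceeded both wild-type libraries for 1 gene and was below both for 4. With Y-linked presence as a term in the fit, an alternative added after the data were seen, 0 of the 11 were called. The number called was 1 without Scx-/- 2, 2 without wild-type 1, wild-type 3, or Scx-/- 3, and 9 without Scx-/- 1. It was also 1 with DESeq2 and 2 with filterByExpr, the replicate block, or thinned libraries, so most of the 5 calls depend on the processing. The median of 1.37 was 0.66 with the Y-linked term. Whether the dissected piece or the Y-linked status of the samples has a part in the result was not tested. Scn4b, a sodium channel subunit outside this list, was also highest in Scx-/- 2 and 3 and next in wild-type 2, with 30.2, 59.1, and 0 against 28.9, 164, and 127 CPM. It was called higher, though not without wild-type 1, with DESeq2, or with filterByExpr.

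**Figure D4:**
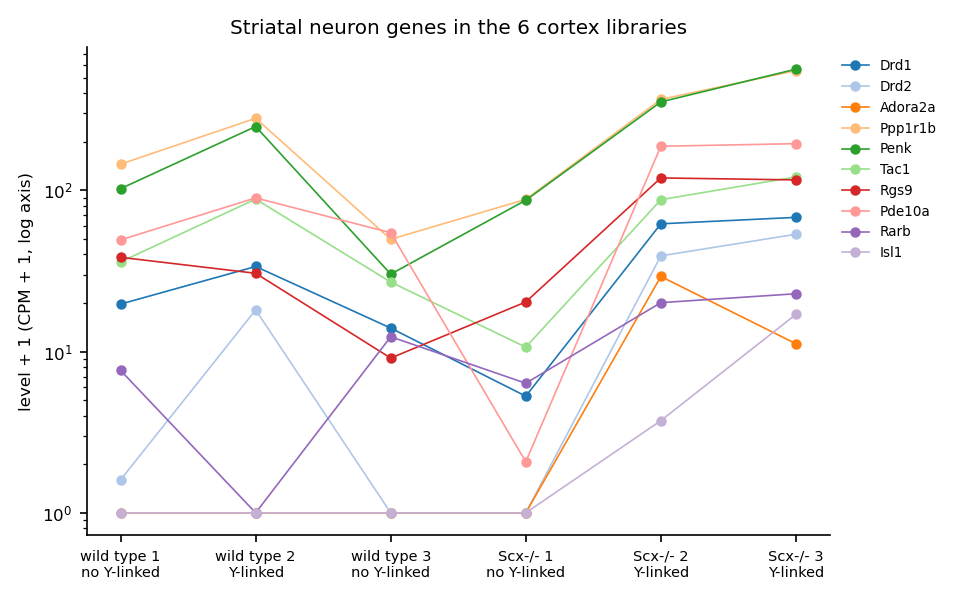
Level plus 1 (CPM, log axis) of 10 striatal neuron genes in each of the 6 cortex libraries, whose names say whether Y-linked counts were above 10 CPM. Lines join the points of a gene and mark no order. Wild-type 2 and Scx-/- 2 and 3, the libraries with Y-linked counts above 10 CPM, are the top 3 libraries for 9 of the 11 measured genes.

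Of the 8 measured hippocampal neuron genes, 5 lay above and 3 below 0 with a median of 0.82, which was 0.27 without Scx-/- 1, 0.45 without Scx-/- 3, and 1.42 without wild-type 2. Their sums were 156, 131, and 90.8 CPM in wild type and 173, 225, and 271 CPM in Scx-/- cortex and did not overlap. Wfs1, the 1 called member, made up most of them, and the sums without it, 33.8, 51.3, and 22.7 against 42.9, 17.3, and 54.6 CPM, overlapped. Clic6, a chloride channel protein of choroid plexus, was called higher from Scx-/- 3 (not without it) at 31.3 CPM, while the other five libraries held at most 0.910 CPM. Pomc, a hypothalamic peptide precursor, was called lower at 10.3, 21.8, and 21.1 against 1.07, 0, and 0 CPM. Hbb-bt, a beta globin gene, was called lower from wild-type 2 alone at 65.4 CPM. Over all tissues it had 3273 counts in libraries of that label number, in 15 of 16 tissues, and at most 7 in those of any other label number, so this difference was not particular to cortex. Red blood cell genes were below 0 in 8 of 8, yet their sums, 4160, 1867, and 5817 CPM in wild type and 4672, 2981, and 2414 CPM in Scx-/- cortex, overlapped. Skeletal muscle genes were above 0 in 10 of 10 with none called, but their median of 0.52 was -0.08 without wild-type 1, and their sum was 52.5 CPM in wild-type 1 but 618 to 1198 CPM in the other five libraries. Their part in the results was not tested.

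Lists of neuronal function held 0 or 1 call each. Synaptic vesicle genes were above 0 in 9 of 15, glutamate receptor and postsynaptic density genes in 8 of 16, and neuropeptide and neurotrophin genes in 11 of 14 with a median of 0.36, with none called. GABA receptor genes were above 0 in 10 of 14 (median 0.15) and voltage-gated channel genes in 12 of 18 (median 0.04). Gria2, an AMPA receptor subunit, was at 565 to 569 CPM in wild type and 661 to 841 CPM in Scx-/- cortex without overlap, but its log2 fold change of 0.46 (unadjusted p = 0.0131) was below the threshold. Camk2a and Camk2b, kinases of the postsynaptic density, differed by -0.26 and -0.23. Gabrg3, a GABA-A receptor subunit, was the 1 called gene of 14 GABA receptor genes, at 21.1, 4.67, and 3.24 against 13.9, 50, and 42.9 CPM, and it lost its call without wild-type 2 or 3 or Scx-/- 2 or 3. Scn4b was the 1 called of 18 voltage-gated channel genes. Npas4, an activity-induced transcription factor, was called higher without overlap at 4.22, 0, and 24.3 against 30.0, 43.7, and 27.6 CPM, but not without any 1 library other than wild-type 3, whereas 6 of the 17 measured immediate early genes lay above 0 and 11 below.

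Stress, hormone, and metabolic lists also gave single calls. Nfkbia, an NF-kappaB inhibitor, was the 1 called of 16 glucocorticoid-responsive genes (34.4, 34.2, and 17.8 against 104, 22.7, and 76.4 CPM, with overlap, and no call without wild-type 3, Scx-/- 1, or Scx-/- 3), and Cirbp was the 1 called of 10 heat shock and cold-inducible genes. Circadian clock genes gave 0 calls among 15. Endoplasmic reticulum chaperones were below 0 in 11 of 16 with a median of -0.38 and no call. The median was -0.15 without wild-type 2, -0.24 without Scx-/- 3, and -0.19 with the replicate block, and 1 member was called without wild-type 3. Canx, the chaperone calnexin, differed by -0.59 (unadjusted p = 0.00802), and Hspa5, the chaperone BiP, by -0.59. The sum over all 16 chaperones was 2012, 2762, and 2404 CPM in wild type and 2108, 1764, and 1705 CPM in Scx-/- cortex, where Scx-/- 1 lay among the wild-type values. Nuclear respiratory chain genes split 15 to 15, cytosolic ribosomal protein genes 40 to 40 with Rpl34 called lower (not without wild-type 1 or Scx-/- 2), and glycolytic genes 7 to 8 without a call.

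Of the insulin-like growth factor axis, Igfbp2, a carrier of IGFs, was called lower at 68.7, 62.2, and 87.6 CPM in wild type and 36.4, 21.8, and 29.1 CPM in Scx-/- cortex (log2 fold change -1.29), without overlap, and lost its call without wild-type 3 or Scx-/- 2. It was the 1 called of 13 measured members. The growth factor Igf2 itself was not called, at 132 to 174 CPM in wild type and 85.5 to 168 CPM in Scx-/- cortex. Genes of proliferation and newborn neurons were above 0 in 4 and below 0 in 10 of 14, with none called. Their median of -0.52 was -0.20 with the replicate block, -0.25 without wild-type 2, -0.33 without Scx-/- 2, and -0.34 without wild-type 1. Their sums were 358, 509, and 440 CPM in wild type and 343, 343, and 338 CPM in Scx-/- cortex.

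Besides Scx itself, 63 genes that start within 1 Mb of its start were tested and 4 were called, all lower (6.35%, against 1.42% of all genes called lower). They were Exosc4 of the RNA exosome (log2 fold change -1.50), Gpaa1 of GPI anchor attachment (-1.02), Mroh1 (-1.03), and Top1mt, the mitochondrial topoisomerase (-4.17). Bop1, which overlaps Scx, differed by -0.09, and the median over the 63 genes was -0.13. Each of the 4 lost its call without wild-type 2, among other libraries for each.

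Hippocampus is the other brain tissue of the survey, and the difference of the genotype effects was tested directly. Its libraries were shallower, with 118567 to 184695 counts in wild type and 255264 to 511781 in Scx-/- mice. The interaction test over 9521 genes gave 1 gene an adjusted p under 0.05 (0.0105%) and 697 genes (7.32%) an unadjusted p under 0.05, the latter 392 with the animal as a block, by label number, and 1056, 1201, and 1109 without wild-type hippocampus 1, 2, and 3. The number with an adjusted p under 0.05 was 0 without Scx-/- hippocampus 1 or 2, 6 without wild-type hippocampus 1, and 4 without wild-type hippocampus 2 or 3. Genes of small p that missed the adjusted threshold were Tbpl1, a relative of the TATA-binding protein, with a difference of log2 fold changes (cortex minus hippocampus) of -5.97, Spata2l with -4.42, Cab39, a partner of the kinase Lkb1, with -3.12, and Aldoc, the aldolase of astrocytes, with -1.18. Each of these 4 had an adjusted p of 0.482 by the quasi-likelihood test of edgeR.

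Of the 13445 genes tested in both tissues, 375 were called in cortex and 528 in hippocampus (3.93%). Called in both were 16, and 10 of them in the same direction. These 16 were 4.27% of the cortex calls, near the 3.93% called in hippocampus among all these genes, and 3.03% of the hippocampus calls. A hippocampal fold change above 0 was seen for 61.4% of the genes tested in both. It was seen for 113 of 191 genes called higher in cortex (59.2%) and for 110 of 184 called lower in cortex (59.8%), both near the share of all genes. Of the genes plotted as named in cortex, 5 of the 11 higher genes lay above 0 in hippocampus and 5 of the 12 lower genes below 0. Among those of the same sign, the hippocampal log2 fold changes were 1.41 for Cirbp (unadjusted p = 0.153), 3.68 for Kcnt1 (unadjusted p = 0.0258), -2.03 for Fabp7 (unadjusted p = 0.00527), and -1.46 for Slc7a8 (unadjusted p = 0.172). Among those of the opposite sign, they were -1.52 for Gadd45g, 2.52 for Bmpr1a, 3.19 for Adgrv1, 4.81 for Egfem1, and 4.25 for Eif1ax. Only Kcnt1 and Fabp7 of these 23 genes had an unadjusted p under 0.05 in hippocampus, and all had an adjusted p of 0.762 or more there. Fabp7 read 329, 146, and 301 CPM in wild-type hippocampus and 86.9, 50.8, and 23.5 CPM in Scx-/- hippocampus, so the groups did not overlap there either. The libraries of both tissues may come from the same mice.

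**Figure D5:**
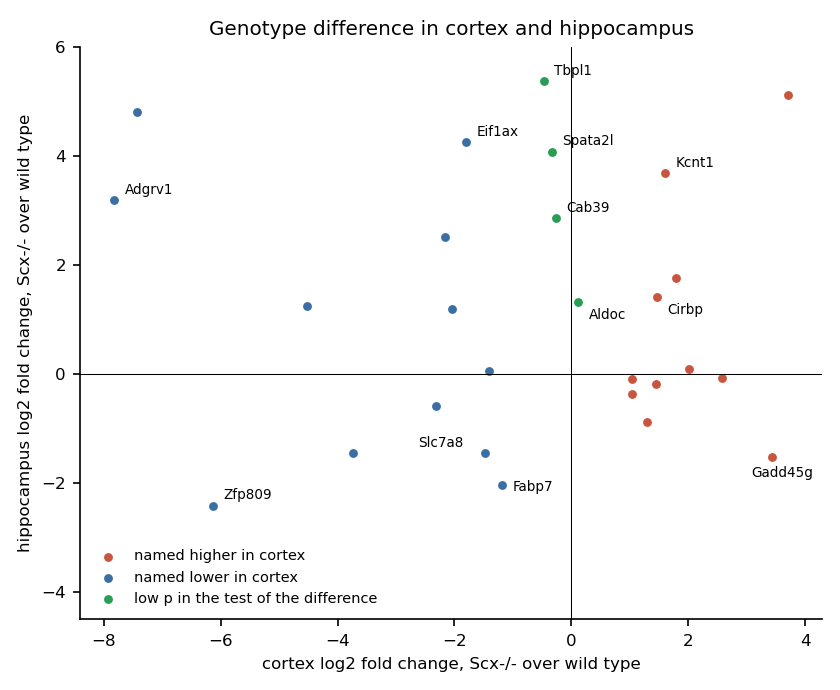
Log2 fold change of Scx-/- over wild type in hippocampus (vertical axis) against that in cortex (horizontal axis) for 11 genes named as higher (red), 12 named as lower (blue), and 4 genes of small p in the test of the difference (green). Red and blue points lie on both sides of 0 in hippocampus, with Cirbp at 1.41 and Fabp7 at -2.03 there.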

How the data were processed

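Total RNA of frozen tissue was reverse transcribed with sample barcodes, pooled, and made into libraries that enrich 3′ ends. The authors deposited raw counts for each gene symbol, made with Bowtie2 and HTSeq on mm10 per the submitters' processing notes. Strandedness of the counting, molecular identifiers, the mouse behind each library, and its sex are not given in the sources. The p-values therefore rest on the spread among libraries, which may be technical.

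Genes at 0 in all 6 cortex libraries were removed. CPM used library totals. edgeR 4.0.16 (R 4.3.3) with TMM factors and a robust glmQLFit, adjusted by Benjamini-Hochberg over all 16842 genes was the test, and the interaction with hippocampus was fitted to genes passing filterByExpr. The common biological coefficient of variation was 0.70. Depth was 616505 to 1658192 counts per library, and detection floors of 3 counts cover counting error only. The scripts were tested on simulated data. Lists were described by counts and medians without a set test. Python 3.11.15, numpy 2.4.6, pandas 2.3.3, and matplotlib 3.10.9 made tables and plots.

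The genes named are Scx, up to 12 higher and 12 lower genes with an adjusted p under 0.05 (none here, so filled by smallest p from called genes without overlap and with a mean of at least 10 CPM), the 3 most abundant and any called member of each list, the 5 most abundant genes, and up to 5 of the interaction test. Not every gene this covers is printed, and results that need certain genes are not reported here. The list members with an unadjusted p under 0.05 or groups that do not overlap were named after their values were seen. Members, lists, and tests were chosen with earlier results of these data known. Alternatives were RLE or library totals as scaling, filterByExpr, DESeq2 1.42.0, the replicate number as a block, thinned libraries, a joint fit with hippocampus, no ribosomal and mitochondrial genes, and leaving out each library. Y-linked counts as a covariate and a fit with the animal as a block were added after the data were seen.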

Additional observations from a re-analysis of the deposited data

How the results depend on the processing

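The number called, 467, was 211 with filterByExpr, 284 with the replicate block, and 304 in the joint fit with hippocampus. It was 651 with DESeq2, the tool of the study, at the same thresholds (310 higher, 369 of the 651 shared with the main test), and 342 to 623 when single libraries were left out, highest without wild-type 1. Called higher, 228 in the main test, were 109 with filterByExpr, 135 in the joint fit, and 161 to 366 when single libraries were left out. Called lower, 239, were 102 with filterByExpr and 113 with the replicate block. Genes with an adjusted p under 0.05, 0 in the main test, were 5 with DESeq2, 2 with the replicate block (Hbb-bs and Malat1), 1 with thinned libraries (Kcnt1), 1 with the Y-linked covariate (Hbb-bs), and 0 to 8 when single libraries were left out. For the interaction with hippocampus, 1 gene in the main test, leaving out single libraries gave 0 to 6. The replicate block pairs libraries that share only a number: the correlations of the deviations of same-numbered libraries were -0.012, 0.012, and -0.009. Reversed signs were seen for Spata2l (-0.57 to 0.067 when single libraries were left out, above 0 without wild-type 3 or Scx-/- 3), Aldoc (-0.0069 to 0.24, below 0 without wild-type 3), and, with the Y-linked covariate, Drd1 (-0.22), Tac1 (-0.54), Pde10a (-0.85), and Gng7 (-0.10). None of the 24 genes chosen by p reversed, which their choice by small p and by groups without overlap favours. Of their 357 alternative values 335 stayed past the thresholds and 22 did not, and 11 genes kept the call in every alternative. The cause of these changes was not tested.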

Other observations

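Outside the astrocyte list, whose genes split 7 above and 9 below 0 with a median of -0.04, 2 astrocyte genes were picked after their values were seen because they lay lower in Scx-/- cortex, and they say nothing of astrocyte genes as a group. Gpr37l1, an orphan receptor of astrocytes, read 645, 683, and 540 CPM in wild type and 409, 341, and 382 CPM in Scx-/- cortex (log2 fold change -0.69). Kcnj10, the potassium channel Kir4.1 of astrocytes, read 238, 251, and 230 against 141, 101, and 129 CPM (-0.92). Neither gene overlapped between groups, and neither is in the astrocyte list.

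Genes with the library order of the striatal list, also chosen after their values were seen, include Lrrc10b at 14.5, 20.2, and 0 CPM in wild type and 4.29, 129, and 137 CPM in Scx-/- cortex. Here too Scx-/- 1 was low.

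Some abundant genes were present in some cortex libraries and nearly absent in others of the same group. With a highest level of at least 200 CPM and a range of at least 20-fold, 11 genes were found, and for 10 of them the same label numbers were high and low on average in the 15 other tissues. Hspa8, a constitutive heat shock protein, read 680, 12.4, and 1074 CPM in wild-type cortex and 3.22, 1086, and 8 CPM in Scx-/- cortex, and averaged 442, 23.1, and 890 against 67.4, 464, and 50.9 CPM in the other tissues. Ttr, a choroid plexus gene, was the exception. Y-linked counts exceeded Xist counts in 15, 14, and 15 of 16 tissues for wild-type 2, Scx-/- 2, and Scx-/- 3, and in at most 1 tissue for the other label numbers.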
